A study of Mus musculus with 39 samples.

Results

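The tektins are a family of 5 genes in mouse, Tekt1 to Tekt5, and all 5 symbols were found among the 32285 genes of the single-cell feature list. Tektins are coiled-coil filament proteins that lie inside the doublet microtubules of cilia and flagella, and in the testis they are built into the axoneme of the sperm tail. Doublet microtubules are made while the round spermatid grows its flagellum, and the proteins that line their inner wall are translated from RNA that accumulates in late spermatocytes and spermatids. Tekt2 and Tekt4 are known to be needed for normal sperm motility. Tekt3 has been placed in the sperm flagellum, and Tekt5 is known as a testis-rich member found in the sperm tail.

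The levels came from 1 control and 1 cKO library of dissociated whole testis, made with a droplet kit that tags RNA at its 3' end. The control carried Kdm6a fl/y without Cre, and the conditional knockout (cKO) carried Kdm6a fl/y with Ddx4-Cre+, a Cre driven by a germ-cell promoter. Both genotypes share the floxed allele of Kdm6a, the X-linked gene of the H3K27 demethylase UTX, and the labels used here give no age and do not say how many animals went into a library. Chromatin was read in sorted cKIT+ spermatogonia, as ATAC-seq and as CUT&Tag for H3K27me3, each from 2 control and 3 cKO libraries, with 1 IgG library. With 1 single-cell library per genotype there is no replicate check, so differences between the libraries were not tested and the 95% intervals below cover counting error only. UMIs are molecules counted once, and levels are given as CPM, the UMIs of a gene scaled to 1000000 UMIs of its class, with no scaling by gene length.

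The 60 bases before each gene's most upstream start among the RefSeq promoter windows (GRCm38.p6) are shown because the members differ in them. They are read 5′ to 3′ on the gene's strand. Capitals mark GTTGC or its reverse complement GCAAC, which is one arm of the X-box, the site known to be bound by RFX factors at genes of cilia.
Tekt1: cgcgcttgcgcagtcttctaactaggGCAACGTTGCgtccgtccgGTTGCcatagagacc
Tekt2: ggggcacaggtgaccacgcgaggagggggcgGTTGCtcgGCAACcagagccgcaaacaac
Tekt3: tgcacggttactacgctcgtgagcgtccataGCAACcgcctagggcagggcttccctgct
Tekt4: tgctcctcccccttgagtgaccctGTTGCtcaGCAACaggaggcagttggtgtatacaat
Tekt5: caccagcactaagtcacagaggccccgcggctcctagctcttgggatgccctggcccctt

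These stretches lie at chr11:72361883-72361942 on the minus strand for Tekt1, chr4:126325689-126325748 on the minus strand for Tekt2, chr11:63061599-63061658 on the plus strand for Tekt3, chr17:25471530-25471589 on the plus strand for Tekt4 and chr16:10395456-10395515 on the minus strand for Tekt5. Tekt1 had 3 such arms in its 60 bases, Tekt2 had 2, Tekt3 had 1, Tekt4 had 2 and Tekt5 had 0. These counts hold for the start shown. At the other Tekt1 start, chr11:72361296, the only arm began 101 bases before it. At the Tekt2 start chr4:126325646 the nearest arm began 63 bases before it, and the window of the start chr4:126325435 held none. The annotated Tekt1 gene reaches upstream to chr11:72362442, and the annotated Tekt4 gene begins at chr17:25454549. The bases shown for Tekt1 and Tekt4 therefore lie inside the annotated gene. Among all 32851 promoter windows, 8.50% held at least 1 arm in the same 60 bases. Tekt2 and Tekt4 carried both arms as GTTGCNNNGCAAC, an inverted repeat starting 29 and 36 bases before the start. Its arms, though not the bases between them, read the same on either strand, and they are among the arms already counted. That repeat stood in 0.125% of all windows over these 60 bases and in 0.225% over the whole window of 300 bases. In its whole window Tekt5 held 1 arm, 235 bases before the start, and 35.2% of all windows held one. The full cyclic AMP response element TGACGTCA, searched on both strands, was in none of the members' windows and in 1.79% of all windows. The motifs were chosen after these sequences had been read and several other patterns looked at, so a match is a description of the letters.

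The libraries held 229882646 UMIs for the control and 172368722 for the cKO. Barcodes with at least 3000 UMIs numbered 11252 and 8520, with median depths of 8410.5 and 8499 UMIs, and 30 barcode sequences occurred in both sets. Kdm6a itself had 304 UMIs in the control and 75 in the cKO library (2.29 and 0.757 CPM), and the labels do not say whether its 3' tags lie in the deleted part. Barcodes were put into classes by the highest mean score of 8 marker lists, and 11.5% of control and 10.5% of cKO barcodes led by less than 0.25. The round spermatid class held 1982 control and 1878 cKO barcodes, the elongating class 4920 and 3549, the late spermatocyte class 2277 and 1782, the early spermatocyte class 995 and 521, and the spermatogonial class 292 and 239. By the gating rule itself, the summed round spermatid markers stood at 4538 and 4698 CPM in round spermatids and 656 and 544 CPM in elongating spermatids, which is no independent check of the classes. The list of elongating markers, which include the protamines, was found at 8518 CPM or more in every class, Leydig cells included.

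Tekt1 to Tekt4 were highest in round spermatids in both libraries, and were several-fold lower in elongating spermatids. Tekt2 reached 920 CPM (910 to 931) in control and 978 CPM (967 to 989) in cKO round spermatids, the highest class level of any tektin. It stood at 206 and 220 CPM in late spermatocytes and at 102 and 83.5 CPM in elongating spermatids. The level in round spermatids was 4.47-fold that in late spermatocytes in the control and 4.45-fold in the cKO library. In late spermatocytes Tekt2 was below its level in free RNA, the RNA of barcodes with 1 to 100 UMIs, at 0.681 and 0.806 of it. With the level of the lowest class subtracted as free RNA, the step was 7.86-fold in the control and 6.55-fold in the cKO library.

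Tekt1, which is also found in cilia outside the testis, was already high in late spermatocytes. It stood at 183 and 223 CPM in early spermatocytes, 495 and 553 CPM in late spermatocytes and 666 and 795 CPM in round spermatids, control first. The step from early to late spermatocytes was 2.71-fold and 2.48-fold, and that from late spermatocytes to round spermatids was 1.35-fold and 1.44-fold. With the level of the lowest class subtracted as free RNA, the step from early to late spermatocytes was 7.49-fold and 4.66-fold. That class was Leydig cells in the control, at 135 CPM, and elongating spermatids in the cKO library, at 133 CPM. Late spermatocytes, which are rich in RNA, held 45.04% of the Tekt1 UMIs of the control library and 38.3% of those of the cKO library.

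Tekt3 was also highest in round spermatids, at a lower level. Its values were 48.9 and 42.0 CPM in early spermatocytes, 160 and 176 CPM in late spermatocytes, 254 and 290 CPM in round spermatids and 42.0 and 35.0 CPM in elongating spermatids. Tekt4 resembled Tekt2, with 193 and 238 CPM in late spermatocytes, 623 and 745 CPM in round spermatids and 80.2 and 72.9 CPM in elongating spermatids. In late spermatocytes Tekt4 stood at 0.582 and 0.699 of its free RNA level, and Tekt3 at 1.05 and 1.25 times its own. The share of Tekt4 UMIs in round spermatids was 58.0% and 67.1%, against 43.9% and 54.5% for Tekt3.

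**Figure D1:**
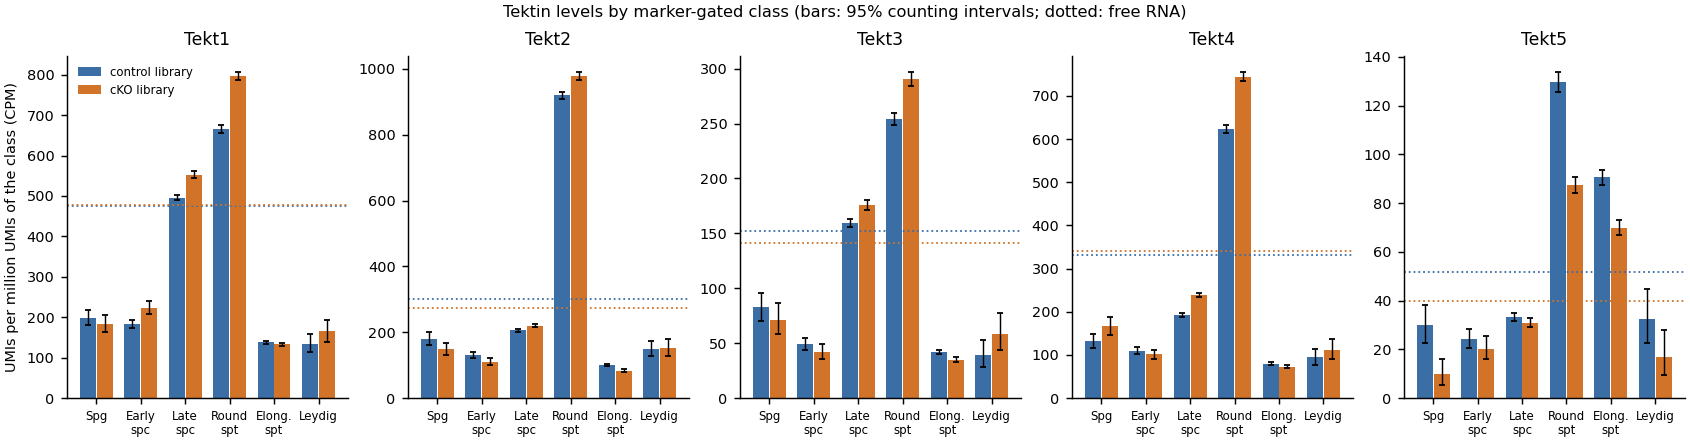
Level of each tektin gene (vertical axis, CPM of the class) in 5 germ-cell classes (Spg, spermatogonia; spc, spermatocytes; spt, spermatids) and Leydig cells (horizontal axis), with 1 bar per library, 95% counting intervals and the level in free RNA as a dotted line. Tekt1 to Tekt4 stand highest in round spermatids and low in elongating spermatids, while Tekt5 has 90.6 and 70.0 CPM in elongating spermatids.

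Tekt5 had another course. It stood at 24.3 and 20.3 CPM in early spermatocytes and at 33.4 and 30.9 CPM in late spermatocytes. In round spermatids it reached 130 CPM (126 to 134) in the control and 87.4 CPM (84.2 to 90.8) in the cKO library, and in elongating spermatids 90.6 CPM (87.7 to 93.6) and 70.0 CPM (66.8 to 73.2). Elongating spermatids held 36.9% and 32.0% of its UMIs, against 10.4% and 7.23% of those of Tekt1. On the log2 scale the difference of elongating from round spermatids was -0.52 and -0.32 for Tekt5, and it ran from -2.26 to -3.55 over Tekt1 to Tekt4 and both libraries. This value depends on the scaling: with the 50 most abundant genes left out of the total it was -0.16 for Tekt5 in the control and 0.0853 in the cKO library.

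Leydig cells, which have no flagellum, were used as the comparison class. With all barcodes kept and median depths of 7098 and 6533 UMIs, Tekt1 stood there at 135 and 165 CPM, Tekt2 at 150 and 152, Tekt3 at 39.5 and 58.8, Tekt4 at 94.2 and 112 and Tekt5 at 32.3 and 16.97. Scrublet marked 7.64% and 13.04% of Leydig barcodes as doublets, and single Leydig barcodes held up to 33 UMIs of Tekt2 and 26 of Tekt1, so free RNA and doublets cannot be told apart in these levels. Without the marked doublets, a choice made after seeing the data, the levels were 118 and 95.9 CPM for Tekt1, 111 and 109 for Tekt2, 36.7 and 23.2 for Tekt3, 80.6 and 84.2 for Tekt4 and 27.6 and 7.26 for Tekt5.

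Elongating spermatids lay above Leydig cells for Tekt5 in both settings. The ratio was 2.81-fold in the control and 4.12-fold in the cKO library with all barcodes, and 3.30-fold and 9.77-fold without doublets, the last resting on 5 Tekt5 UMIs in Leydig cells. For Tekt1 and Tekt3 in the cKO library the sign of the difference depended on the doublets. With all barcodes, Tekt2 was below the Leydig level in both libraries, with log2 differences of -0.56 and -0.86, and Tekt1, Tekt3 and Tekt4 were below it in the cKO library, at -0.31, -0.75 and -0.62. Without doublets these cKO differences were 0.42 (0.07 to 0.80) for Tekt1, -0.45 (-0.78 to -0.09) for Tekt2, 0.55 (-0.16 to 1.36) for Tekt3 and -0.26 (-0.64 to 0.14) for Tekt4, and the 4 control intervals included 0. With all barcodes kept, spermatogonia and early spermatocytes stood within 2.09-fold of Leydig cells for every member in both libraries. Without doublets this limit was passed in the cKO library by Tekt3 in spermatogonia, at 65.6 CPM beside 23.2 CPM in Leydig cells. Tekt1 in cKO early spermatocytes also passed it, at 222 beside 95.9 CPM, while Tekt2 there was at 108 beside 109 CPM. Tekt5 stood there at 20.3 CPM with all barcodes kept, beside 7.26 CPM in Leydig cells without doublets, the latter resting on 5 UMIs. The 95% interval of the ratio to Leydig cells, which counts the error of both classes, was taken with all barcodes kept. It lay above 1 in both libraries for Tekt4 in spermatogonia and Tekt1 in early spermatocytes, and in the control alone for Tekt1 and Tekt3 in spermatogonia. Without doublets, cKO spermatogonia stood at 166 CPM (144 to 190) for Tekt1 and 65.6 (52.4 to 81.1) for Tekt3. Leydig cells then stood at 95.9 (74.1 to 122) and 23.2 (13.3 to 37.7), so these levels were apart in the cKO library too. With all barcodes kept, however, Leydig cells were the lowest somatic class for Tekt1, Tekt3 and Tekt4. Sertoli cells stood at 244 and 243 CPM for Tekt1, 80.3 and 70.4 for Tekt3 and 153 and 150 for Tekt4. Spermatogonia stood at 199 and 184, 82.7 and 71.5, and 133 and 167 CPM. Other somatic cells had 279 and 364 CPM of Tekt1, beside 183 and 223 CPM in early spermatocytes.

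The share of barcodes with a Tekt2 UMI was 97.4% and 99.3% in round spermatids, 52.3% and 42.0% in elongating spermatids and 50.7% and 50.4% in Leydig cells, at median depths of 12874 and 12160.5, 6803 and 6254, and 7098 and 6533 UMIs. After each barcode was thinned to 3000 UMIs, the Tekt2 shares were 89.5% and 92.3% in round spermatids, 30.1% and 22.7% in elongating spermatids and 34.0% and 34.8% in Leydig cells. Tekt5 was found in 54.6% and 45.5% of round spermatids and in 38.7% and 30.5% of elongating spermatids, against 19.4% and 8.70% of Leydig cells. Tekt1, thinned, was found in 36.1% and 34.0% of elongating spermatids and in 31.9% and 25.2% of Leydig cells, so its share and its CPM put these classes in a different order in the cKO library. Thinned, the Tekt5 shares were 27.1% and 18.7%, 19.0% and 14.8%, and 12.5% and 4.35%. In single round spermatids of the control library Tekt2 reached 143 UMIs and Tekt5 34 UMIs.

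The spermatid barcodes of both libraries were then ordered by the elongating score minus the round score and divided into 5 bins of equal number. Tekt1 to Tekt4 were highest in bin 1 and low from bin 3 on in both libraries. Tekt2 ran from 1044 and 1052 CPM in bin 1 through 546 and 590 in bin 2 to 102 and 94.5 in bin 3. Tekt4 ran from 721 and 813 CPM through 362 and 426 to 84.2 and 72.9. Tekt5 stood at 77.2 and 59.8 CPM in bin 1, at 198 and 164 CPM in bin 2, and at 110 and 95.2, 70.2 and 58.0, and 40.7 and 38.5 CPM in bins 3 to 5. Bin 2 is where the round and the elongating class meet, since 54.8% of its control barcodes and 59.9% of its cKO barcodes were gated as round spermatids. The protamine gene Prm1 stood at 2342 and 1860 CPM in bin 1 and at 29776 and 29864 CPM in bin 2. Prm1 is in the score that orders the bins, so it describes them and does not date them independently. Along this order the highest Tekt5 level lay 1 bin after those of Tekt1 to Tekt4.

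**Figure D2:**
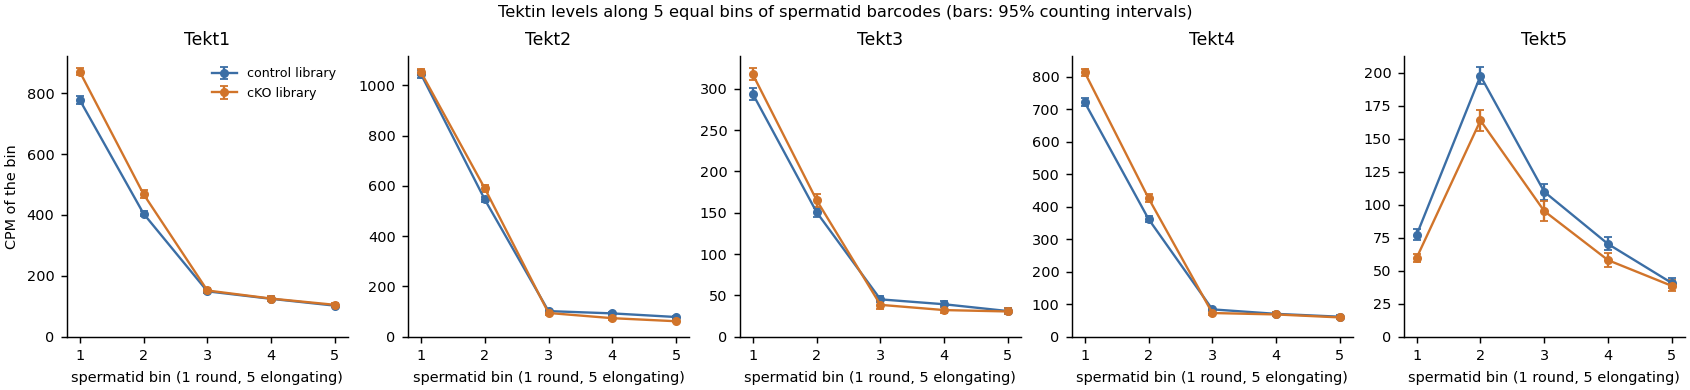
Level of each tektin gene (vertical axis, CPM of the bin) along 5 bins of spermatid barcodes ordered by elongating minus round marker score (horizontal axis), with points for the control and the cKO library and 95% counting intervals. Tekt1 to Tekt4 are highest in bin 1, and Tekt5 peaks in bin 2 at 198 CPM in the control and 164 CPM in the cKO library.

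Clusters of barcodes gave the same division. The tektins were left out of the variable genes, as were those other doublet microtubule genes of the list below that were found by symbol. Of 23 clusters, Tekt1, Tekt2 and Tekt4 were highest in round-spermatid-like cluster 19 in both libraries and Tekt3 in round-spermatid-like cluster 16. Tekt5 was highest in round-spermatid-like cluster 17, at 292 CPM in the control and 273 CPM in the cKO library. Across the 22 clusters with at least 20 barcodes in each library, Pearson's r of the log2 levels of Tekt2 and Tekt4 was 0.97 in the control and 0.98 in the cKO library, and that of Tekt1 and Tekt3 was 0.94 and 0.95. The remaining pairs among Tekt1 to Tekt4 had r of 0.86 to 0.96 over both libraries, with Tekt3 and Tekt4 at 0.94 and 0.96. Tekt5 had r of 0.10 to 0.24 with the other tektins over both libraries. The clusters of a library share its free RNA and differ in depth, so these values only describe the profiles.

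The genes with the most similar profile over the clusters, among 12910 genes, also differed. Those of Tekt1 were Fbxo36, 1700012B09Rik and Pfn4, with r in the less similar library of 0.98, 0.98 and 0.98. Those of Tekt2 were Ccdc89, Ccdc105 and Ppp1r32, those of Tekt3 were Tmem89, Tomm20l and Myl10, and those of Tekt4 were Zswim2, Tex21 and Tekt2 itself, each with r of 0.97 or 0.98. Ccdc105 is an older symbol of Tektl1, a tektin-like protein of the sperm doublet microtubule. Those of Tekt5 were Defb30, a beta-defensin gene, with r of 0.91, and Gm35520 and 1190005I06Rik, both with r of 0.88.

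Over all kept barcodes Tekt1 was at 399 CPM in the control and 487 in the cKO library, Tekt2 at 339 and 411, Tekt3 at 137 and 164, Tekt4 at 254 and 341 and Tekt5 at 73.3 and 58.0. Tekt1 to Tekt4 were thus higher in the cKO library, by 1.22-, 1.21-, 1.196- and 1.34-fold, and Tekt5 was lower, at 0.791 of the control. None of the 5 passed 1.5-fold, which 7.17% of the 19100 genes with at least 50 UMIs did. The median log2 ratio of the members was 0.28 and that of all these genes -0.03. Round spermatids, the class with the highest levels, made up 17.6% of the control and 22.0% of the cKO barcodes, and the part of this share in the ratios over all barcodes was not tested.

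Within classes Tekt1 to Tekt4 differed between the libraries in both directions. In late spermatocytes their log2 ratios of cKO to control were 0.16, 0.10, 0.14 and 0.31, and in round spermatids 0.26, 0.09, 0.19 and 0.26. In elongating spermatids the ratios of these 4 genes were -0.06, -0.28, -0.26 and -0.14, beside a median of -0.12 over all genes. None of the members passed 1.5-fold in early spermatocytes, where 17.2% of genes did, in late spermatocytes (5.84%), in round spermatids (10.0%) or in elongating spermatids (9.34%). In round spermatids Tekt5 passed it under 2 alternatives, at -0.59 on the log2 scale without scrublet doublets and -0.60 with stages from clusters.

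Tekt5 was lower in the cKO library in all 5 germ-cell classes, with intervals that reached 0 in early and late spermatocytes. It was also lower outside the germ cells, at 32.3 and 16.97 CPM in Leydig cells, 41.5 and 33.3 in Sertoli cells, 79.7 and 41.4 in other somatic cells and 51.8 and 39.8 in free RNA. In spermatogonia and in early and late spermatocytes Tekt5 stood at 0.247 to 0.777 of its free RNA level. In round spermatids it stood at 2.50 and 2.20 times that level and in elongating spermatids at 1.75 and 1.76 times. The part of free RNA in the differences between the libraries was not tested. Its log2 ratio was -0.57 (-0.64 to -0.50) in round spermatids, just short of 1.5-fold, and -0.37 (-0.45 to -0.29) in elongating spermatids. In round spermatids 8.96% of the 14466 genes had a lower ratio. In spermatogonia 1 of the 5 members, Tekt5, passed 1.5-fold, where 10.3% of genes did, but this rests on 61 UMIs in the control and 15 in the cKO library, at levels of 29.8 and 9.84 CPM beside 32.3 and 16.97 CPM in Leydig cells. With stages taken from clusters none of the members passed it in spermatogonia, where the Tekt5 levels were 18.3 and 13.1 CPM and the log2 ratio was -0.48 (-1.26 to 0.27).

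**Figure D3:**
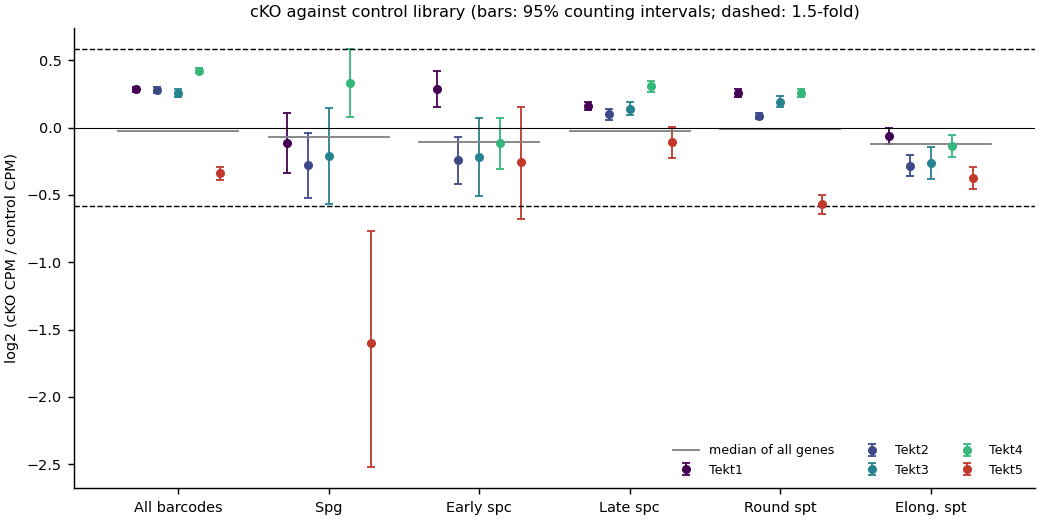
Log2 ratio of the CPM in the cKO library to that in the control library (vertical axis) for each tektin gene over all kept barcodes and in 5 germ-cell classes (horizontal axis; Spg, spermatogonia; spc, spermatocytes; spt, spermatids), with 95% counting intervals, the median of all genes as a grey line and 1.5-fold as dashed lines. Tekt5 lies below 0 in every class, at -0.57 in round spermatids, and Tekt1 to Tekt4 lie between 0.09 and 0.26 there.

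The size of the Tekt5 difference depended on how finely the spermatids were divided. Within the 5 bins its log2 ratio was -0.37, -0.27, -0.21, -0.28 and -0.08. Bins 1 and 2, which held all barcodes gated as round spermatids, were nearer to 0 than the round spermatid class at -0.57. Bins 3 to 5 held elongating spermatids only and were nearer to 0 than the elongating class at -0.37. Within the 5 round-spermatid-like clusters it lay between -0.41 and -0.10 and was below 0 in 5 of 5, and within the 6 elongating-spermatid-like clusters it lay between -0.77 and 0.0012 and was below 0 in 5 of 6. In cluster 17, where Tekt5 is highest, the ratio was -0.10 (-0.20 to -0.0026). That cluster held 4.36% of the control and 3.03% of the cKO barcodes, and elongating-spermatid-like cluster 12, with 183 and 155 CPM of Tekt5, held 7.73% and 4.32%. Clusters 19 and 16, with 13.8 to 37.0 CPM of Tekt5, held 3.77% and 4.76% of the control and 7.32% and 6.85% of the cKO barcodes. Round-spermatid-like cluster 18, with 183 and 150 CPM of Tekt5, went the other way, with 3.26% of the control and 3.99% of the cKO barcodes, and its Tekt5 ratio was -0.29 (-0.41 to -0.16). Elongating-spermatid-like cluster 14, with 102 CPM of Tekt5 in either library, held 10.1% of the control and 9.28% of the cKO barcodes. Among clusters 12, 14, 17 and 18 the share was lower in the cKO library for all but cluster 18. The part of these shares in the Tekt5 ratio of the class was not tested. With 1 library per genotype, a difference in the cells sampled and a difference between the genotypes cannot be told apart.

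**Figure D4:**
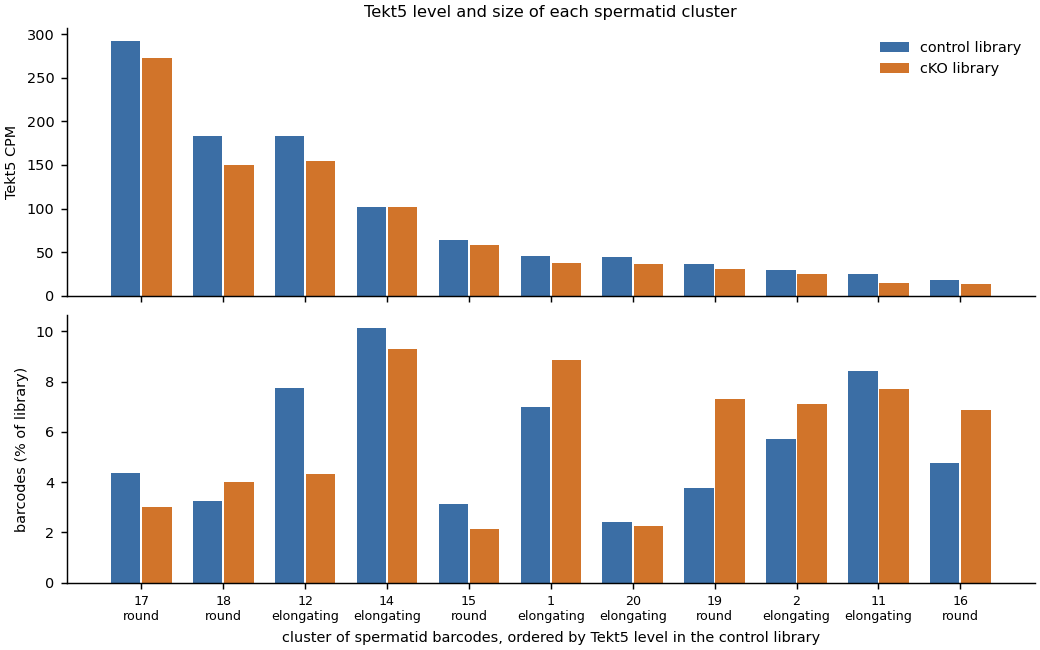
Tekt5 level (upper panel, CPM) and share of the library's barcodes (lower panel, percent) in each of the 11 spermatid clusters (horizontal axis, ordered by the control level), with 1 bar per library. The Tekt5 bars of the 2 libraries are close within cluster 17, at 292 and 273 CPM, while its share of barcodes is 4.36% in the control and 3.03% in the cKO library.

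Within clusters the other tektins differed less evenly. Tekt1, Tekt3 and Tekt4 were higher in the cKO library in 5 of 5 round-spermatid-like clusters, with medians of 0.16, 0.09 and 0.19 on the log2 scale, and Tekt2 was higher in 4 of 5. In the 6 elongating-spermatid-like clusters Tekt2 was lower in 6, with a median of -0.30, and Tekt3 in 5, with a median of -0.25. Tekt1 and Tekt4 were lower in 4 of 6, with medians of -0.06 and -0.10 and highest values of 0.05 and 0.12. Over the 5 bins Tekt1 was above 0 in each, at 0.16, 0.21, 0.03, 0.01 and 0.04.

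A list of 29 other proteins of the doublet microtubule, chosen from general knowledge, gave 21 genes found by symbol, all with at least 50 UMIs. None passed 1.5-fold between the libraries over all kept barcodes, in either direction, beside the 7.17% of all genes. Of the 21, 17 were above 0 and 4 below 0 on the log2 scale, with a median of 0.10 and a range of -0.39 to 0.33. The median over all genes was -0.03, and the share of all genes above 0 was not counted. In both libraries 14 of the 21 were highest in round spermatids, 5 in late spermatocytes and 1 in elongating spermatids. Of all genes, 19.5%, 16.7% and 9.76% were. Round spermatids made up 17.6% of the control and 22.0% of the cKO barcodes, and the part of this share in the ratios was not tested. Spag8 was highest in late spermatocytes in the control and in round spermatids in the cKO library. The 1 highest in elongating spermatids was Spaca9, a binder of the microtubule lumen, at 627 and 579 CPM over all kept barcodes.

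In cKIT+ spermatogonia the deposited ATAC-seq lists held a region within 1 kb of a start of each tektin in at least 1 library, as for 51.6% of 27025 genes. None of the members had one in all 5 libraries, as 26.2% of genes did. Tekt2 had regions in control 2 and in all 3 cKO libraries, and Tekt4 in both controls and cKO 3. Tekt1 and Tekt5 had them in control 2 and cKO 3, and Tekt3 in cKO 3. Control 2 and cKO 3 were the libraries with the most regions, 33250 and 40497, against 14635 to 19118 in the others. The Tekt2 region of cKO 3 (chr4:126324969-126325741), with the authors' fold enrichment of 3.89, covers the inverted repeat shown above, as does that of cKO 2 (chr4:126325245-126325727). The Tekt4 repeat is covered in control 1 (chr17:25471532-25472226), control 2 (chr17:25471541-25472231) and cKO 3 (chr17:25471517-25472220), with fold enrichments of 2.92, 2.95 and 3.28.

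H3K27me3, a mark of repressed chromatin, differed between the members. Regions lay within 1 kb of a start in at least 1 library for 4 of the 5 genes, against 18.3% of all genes. Tekt1 and Tekt4 had them in all 5 libraries, as did 6.12% of all genes. Tekt3 had none in any library, and Tekt2 had 1, in control 2. The IgG library listed no region within 1 kb of a tektin, but 1 within 5 kb of Tekt4, at chr17:25473056-25474831. That IgG region overlaps the H3K27me3 region counted at Tekt4 in each of the 5 libraries. The part of this background in the Tekt4 count was not tested.

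Tekt5 had an H3K27me3 region within 1 kb in 0 of 2 control and 2 of 3 cKO libraries, and a region in at least 2 cKO and no control library was found at 69 genes, or 0.255%. The regions were chr16:10396044-10397194 in cKO 1, beginning 589 bases upstream of the start, and chr16:10394584-10397229 in cKO 3, across the start. Within 5 kb there was a region in 0 of 2 control and 3 of 3 cKO libraries, that of cKO 2 at chr16:10398032-10399392, 2577 bases upstream. That second pattern was found at 8 genes in all, or 0.0296%. Where at least 50% of a region had to lie inside the window, it was found at 22 genes, or 0.0814%, and Tekt5 also met that rule. Within 1 kb Tekt5 did not meet it, with a region in 0 control and 1 cKO library. Under that rule the first pattern, at least 2 cKO and no control library within 1 kb, was found at 393 genes, or 1.45%. The control lists covered 48.1 and 81.3 Mb and the cKO lists 21.3, 30.3 and 70.1 Mb. The region counts were 14545 and 18494 against 11118, 14584 and 15368. The part of list size in the pattern was not tested. By the deposited names every H3K27me3 library but cKO 2 was downsampled. The pattern was noticed in the data and then counted, and whether it bears on Tekt5 RNA, which was measured in other cells, was not tested.

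**Figure D5:**
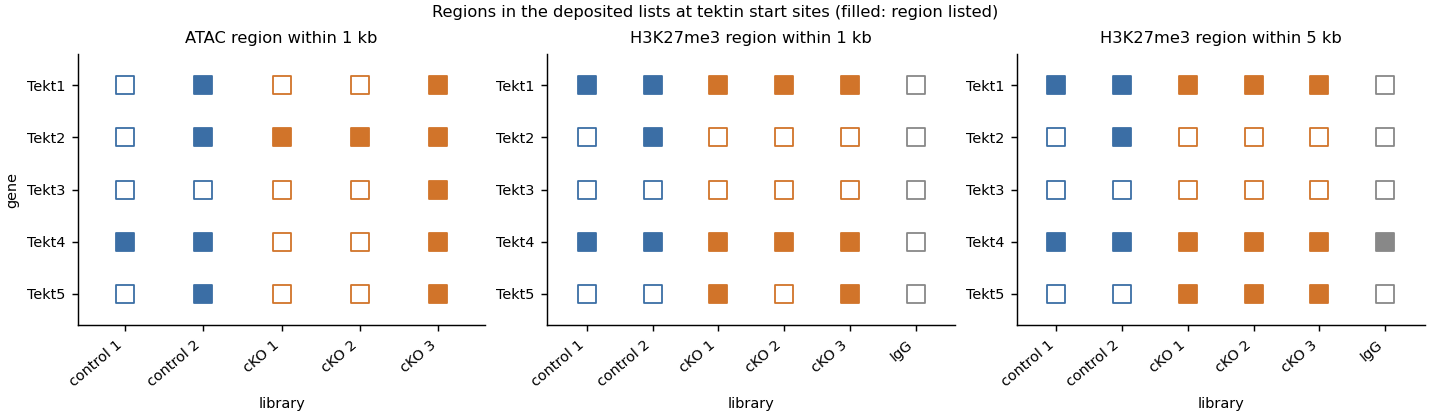
Presence of a region in the deposited lists at a start site of each tektin gene (rows) in each library (columns), for ATAC-seq within 1 kb and for H3K27me3 within 1 kb and 5 kb. A filled square marks a listed region, with control in blue, cKO in orange and IgG in grey, and Tekt5 has H3K27me3 within 5 kb in 3 of 3 cKO and 0 of 2 control libraries.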

How the data were processed

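The authors deposited UMI counts for every barcode, made with Cell Ranger 4 on mm10, per the file headers and the submitters' processing notes. The authors' ATAC-seq lists give a fold enrichment (a ratio) and the -log10 of p and q, from MACS2 per the submitters' processing notes. The authors' CUT&Tag lists give the summed and highest signal per region, from SEACR per the submitters' processing notes. Both use mm10, and regions were called per library.

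Barcodes with at least 3000 UMIs were kept and gated by marker lists. No doublets were removed, and scrublet (scanpy 1.11.5) marked 5.50% of control and 6.51% of cKO barcodes. Clusters came from 2000 variable genes, 30 components, 15 neighbours and Leiden resolution 1. Free RNA is the sum of barcodes with 1 to 100 UMIs. CPM has exact Poisson intervals, and ratios have exact binomial ones. The ratio step and the motif search were tested on simulated data. A difference counted as past 1.5-fold. Named genes were the members, list genes past that fold (none were) and the 3 most similar profiles per member, among genes with at least 200 UMIs in each library. Spag8 and Spaca9 were named after their values were seen, as the list genes outside the main counts by stage. Kdm6a and Prm1 were named as the targeted gene and a stage marker. Members, lists and tests were chosen with earlier results of these data known. Bulk RNA is not analysed here, since its files give no gene names. RefSeq promoter windows matched all 5 members.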

Additional observations from a re-analysis of the deposited data

Results flagged for a closer look

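The log2 ratio of cKO to control lay on opposite sides of 0 in the 2 spermatid classes for 4 members. It was 0.26 in round and -0.062 in elongating spermatids for Tekt1, 0.088 and -0.28 for Tekt2, 0.19 and -0.26 for Tekt3, and 0.26 and -0.14 for Tekt4. The median over all genes was -0.0077 in round and -0.12 in elongating spermatids, and the share of all genes that change sign was not counted. In elongating spermatids 58.1% of all genes had a lower ratio than Tekt1, 29.9% than Tekt2, 31.8% than Tekt3 and 47.7% than Tekt4. Each class has 1 library per genotype, so the differences between the libraries were not tested. In bins 3 to 5 of the ordered spermatids the ratio of Tekt1 was above 0. In elongating spermatids these 4 genes stood at 0.213 to 0.336 of their free RNA level. With the level of the class lowest for the gene subtracted as free RNA, they were at 0 to 4.17 CPM. A value of 0 is set by the subtraction where the elongating class is itself the lowest, so these values are no separate evidence. The part of free RNA in the change of sign was not tested.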

How the results depend on the processing

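Of the ratios of cKO to control over all kept barcodes, every alternative kept the direction of all 5 members, and 5 values left the counting interval. At a minimum of 2000 UMIs they were 0.27 for Tekt1, 0.24 for Tekt2 and 0.39 for Tekt4, and at 5000 UMIs 0.30 for Tekt2 and 0.45 for Tekt4. Within classes 5 ratios of cKO to control changed sign under an alternative, of which Tekt2 in spermatogonia alone had an interval off 0 in the reported setting. At 5000 UMIs the spermatogonial ratios were 0.17 for Tekt2, 0.068 for Tekt1 and 0.10 for Tekt3. With stages from clusters Tekt1 in spermatogonia was 0.077, and Tekt3 and Tekt4 in early spermatocytes were 0.052 and 0.069. In spermatogonia, where 1 member passed 1.5-fold, 2 did at 5000 UMIs (Tekt5, and Tekt4 at 0.59), 2 did with a lead of at least 0.25 (Tekt5, and Tekt2 at -0.75) and 0 did with stages from clusters. In round spermatids 1 member, Tekt5, passed 1.5-fold without the scrublet doublets and with stages taken from clusters. The log2 ratio of elongating to round spermatids kept its sign for Tekt1 to Tekt4 under all alternatives run. For these 4 genes in order it was -2.12, -2.95, -2.41 and -2.75 in the control and -2.48, -3.39, -2.93 and -3.18 in the cKO library at 2000 UMIs, and -2.36, -3.34, -2.76 and -3.15 and -2.65, -3.64, -3.24 and -3.51 at 5000 UMIs. Without the 50 most abundant genes it was -1.91, -2.82, -2.24 and -2.60, and -2.17, -3.14, -2.65 and -2.95. Without doublets it was -2.32, -3.24 and -3.03 for Tekt1, Tekt2 and Tekt4 in the control and -2.67, -3.66 and -3.45 in the cKO library. With a lead of at least 0.25 it was -2.33, -3.27 and -3.06 in the control, and -2.64 and -3.65 for Tekt1 and Tekt2 in the cKO library. With stages from clusters it was -3.08 for Tekt2 and -2.90 for Tekt4 in the control. For Tekt5 it was -0.42 in the control and -0.16 in the cKO library at 5000 UMIs, -0.16 and a reversed 0.0853 without the 50 most abundant genes, and -0.60 with the lead and -0.58 from clusters in the control. The causes were not tested. With at least 50% of a region required inside the window, H3K27me3 was counted in 1 control library at Tekt1, in 0 control and 1 cKO library at Tekt4 and in 1 cKO library at Tekt5, and a window of 5 kb gave 3 cKO libraries at Tekt5. Of the levels by stage, 211 left their counting interval under an alternative and 199 did not. This includes Leydig cells without scrublet doublets, an alternative chosen after seeing the data, where 6 of 10 levels did. With free RNA subtracted as the level of the class lowest for the gene, 32 of 50 levels fell by more than 1.5-fold and 8 were at 0, which the subtraction sets for the lowest class. Tekt1 in elongating spermatids was then at 4.17 CPM in the control and 0 in the cKO library, Tekt2 at 0 in both, and Tekt3 in early spermatocytes at 9.39 and 7.06 CPM. No paired analysis was possible because no test was run and each genotype has 1 single-cell library. Alternatives for bulk RNA were not run.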

Other observations

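The genes beside the tektins were read over all kept barcodes, where 7.17% of all genes passed 1.5-fold. Within 1 Mb of Tekt5, 22 genes with at least 50 UMIs had log2 ratios of cKO to control of -0.45 to 0.19, with a median of -0.13, and 0 of them passed. Tekt5 itself, at -0.34, lies within that range. Around Tekt3 0 of 25 genes passed (-0.49 to 0.46), around Tekt2 1 of 27 (-0.71 to 0.28), around Tekt1 3 of 35 (-1.05 to 0.48) and around Tekt4 4 of 79 (-0.88 to 0.96).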
